A study of Mus musculus with 2 samples.

Results

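The PACAP and VIP system comprised 5 genes, 2 peptide ligands and 3 receptors, which were found by symbol among the 32285 features counted in each of 2 libraries of mouse locus coeruleus (LC). The ligands were Adcyap1, which encodes pituitary adenylate cyclase-activating polypeptide (PACAP), and Vip, which encodes vasoactive intestinal peptide. The receptors were Adcyap1r1 (PAC1), Vipr1 (VPAC1) and Vipr2 (VPAC2), and all 5 genes had at least 1 transcript in each library. The animals were untreated wild-type C57BL/6N mice, males and females together, at an age of 3 to 4 weeks, and the labels call the libraries batch 1 and batch 2. With 1 group, classes of cells were compared inside each library and the library served as the replicate (n = 2). The LC is the pontine nucleus that supplies most forebrain noradrenaline, and the study's title puts the diversity of neuropeptide signalling among its neurons at the centre.

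PACAP and VIP belong to the secretin family of peptides. Both are stored in dense-core vesicles and act on receptors that couple mainly to the stimulatory G protein Gs, which activates adenylyl cyclase and raises cyclic AMP. PAC1 prefers PACAP, whereas VPAC1 and VPAC2 bind both peptides with similar affinity. In the brain PACAP is known mostly as a peptide of excitatory projection neurons and VIP as a peptide of interneurons and of the circadian clock, and PAC1 signalling is tied to stress responses.

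The promoters of the ligand genes are shown because cyclic AMP, the messenger of these receptors, acts on transcription through CREB, which binds the cyclic AMP response element. Vip is a textbook target of this element. The windows below are the 250 bases before the annotated start of each gene on the plus strand of GRCm38.p6, from RefSeq, with the letters TGACGTC in capitals.

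Adcyap1 (chr17:93198767-93199016): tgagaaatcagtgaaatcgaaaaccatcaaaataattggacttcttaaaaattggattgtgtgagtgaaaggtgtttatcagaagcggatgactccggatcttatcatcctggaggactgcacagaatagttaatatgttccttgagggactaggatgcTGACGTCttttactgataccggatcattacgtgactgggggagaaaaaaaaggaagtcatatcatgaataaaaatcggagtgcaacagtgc

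Vip (chr10:5638968-5639217): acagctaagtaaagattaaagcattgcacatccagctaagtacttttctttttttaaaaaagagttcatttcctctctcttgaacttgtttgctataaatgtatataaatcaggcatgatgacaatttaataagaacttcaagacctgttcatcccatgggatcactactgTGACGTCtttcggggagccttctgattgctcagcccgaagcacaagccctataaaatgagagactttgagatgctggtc

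The match began 91 bases before this Adcyap1 start and 79 bases before the Vip start. The table lists a second Adcyap1 start, downstream, and the same match lies 242 bases before it. TGACGTC was searched on both strands, its reverse complement being GACGTCA, and the longer palindrome TGACGTCA contains it. TGACGTC lay in 914 of 32851 promoter windows of that length (2.78%) and TGACGTCA in 508 (1.55%). In Adcyap1 and Vip the match is followed by a t, so their windows held TGACGTC but not TGACGTCA. The matching windows of Adcyap1r1, Vipr1 and Vipr2 held neither string. A match is a description of letters, and no binding was measured.

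Library 1 held 304 barcodes with 5600693 unique molecular identifiers (UMIs, 1 per captured transcript), with a median of 11010. Library 2 was larger and shallower, at 2796 barcodes, 6895380 UMIs and a median of 1517. No barcode was shared between them. After filtering, 294 and 2677 cells remained, 2971 in all where the study states 2578, a word that here covers cells and nuclei because the labels describe protocols for both without assigning them. Each cell was given a class from the UMIs of 111 marker genes, none of which is a member of the system, and a class name such as noradrenergic-like means only that these markers passed. Classes that reached 5 cells in both libraries were excitatory-like (69 and 181 cells in libraries 1 and 2), inhibitory-like (33 and 143), noradrenergic-like (12 and 59), mesencephalic trigeminal-like (11 and 32), cerebellar granule-like (28 and 14), unassigned neurons (30 and 555), astrocyte-like (14 and 248), oligodendrocyte-like (37 and 673), oligodendrocyte precursor-like (10 and 48) and ependymal-like (16 and 86). Depth differed widely between classes, with medians of 83596.5 and 7094 UMIs in noradrenergic-like cells and 5534 and 948 in astrocyte-like cells. In the noradrenergic-like class the noradrenaline transporter gene Slc6a2 stood at 2893 and 2335 CPM (UMIs scaled to a class total of 1e6), Dbh at 1423 and 1319, and Th at 272 and 209. The trigeminal-like class held Piezo2 at 1362 and 1485 CPM and no UMI of P2rx3. Intervals are exact 95% Poisson or binomial ones that cover counting error only, and levels were not compared between genes.

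Among the ligands, Adcyap1 (ENSMUSG00000024256, chromosome 17, 93199017 to 93206537, plus strand) was a transcript of neurons. All gene positions are GRCm38, GENCODE M21. Its level was higher in excitatory-like, trigeminal-like, noradrenergic-like and unassigned neurons than in inhibitory-like neurons. In excitatory-like neurons Adcyap1 stood at 85.9 CPM in library 1 (interval 71.7 to 102) and 71.9 CPM in library 2 (54.9 to 92.5), a mean of 78.9 ± 9.92 (SD, n = 2). Trigeminal-like neurons, the proprioceptive cells of the jaw muscles that lie beside the LC, had 114 and 40.0 CPM (77.0 ± 52.3, SD, n = 2). Noradrenergic-like neurons had 52.6 and 82.7 CPM (67.6 ± 21.2, SD, n = 2), and unassigned neurons 49.9 and 69.5. The libraries of these 4 classes overlapped, so their order is not resolved, and the classes were ordered differently in each library.

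Inhibitory-like neurons lay clearly below, at 14.5 and 14.0 Adcyap1 CPM (14.2 ± 0.376, SD, n = 2), and no library of theirs reached the lowest library of the 4 classes above. Granule-like neurons had 16.2 CPM from 3 UMIs in library 1 and no UMI in library 2. Oligodendrocyte-like cells, taken here as a class that should lack the gene, had 4.96 and 3.59 CPM. Astrocyte-like cells had 0 and 1 UMI of Adcyap1, ependymal-like cells 0 and 2, and oligodendrocyte precursor-like cells none. From inhibitory-like neurons downward the libraries of neighbouring classes overlapped throughout.

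**Figure D1:**
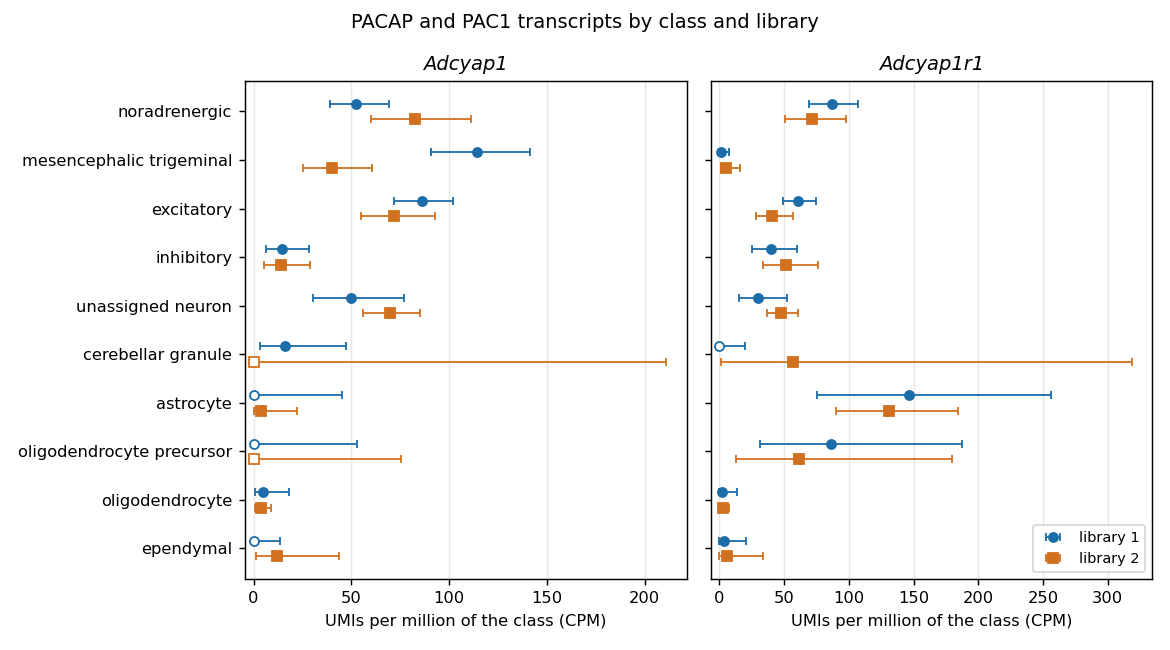
Level of Adcyap1 (left) and Adcyap1r1 (right) in 10 cell classes, in CPM, with exact 95% Poisson intervals; circles are library 1, squares library 2, and open symbols mark 0 UMIs. Adcyap1 is high in 4 neuron classes and low in inhibitory-like neurons and glia, whereas Adcyap1r1 is highest in astrocyte-like cells (147 and 131) and near the floor in trigeminal-like neurons (1.37 and 5.46).

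Excitatory-like and inhibitory-like neurons differed in Adcyap1 by a log2 fold of 2.47 ± 0.34 (SE, n = 2), with an adjusted p of 6.25e-11 (edgeR quasi-likelihood, Benjamini-Hochberg over 8014 genes). The 2 libraries alone gave 2.39 and 2.19, and DESeq2 also called it (adjusted p = 0.0235). Of all genes tested in that comparison 6.04% were called, 3.42% higher and 2.62% lower. All neurons together had 67.9 and 58.9 CPM of Adcyap1 against 2.31 and 5.70 in all non-neuronal cells, a log2 fold of 3.72 ± 0.38 (SE, n = 2; edgeR adjusted p = 3.94e-09). In that comparison 51.1% of 12919 genes were called and 26.6% were higher in neurons, so a call alone sets no gene apart.

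Noradrenergic-like neurons did not differ detectably from the other neurons in Adcyap1, at 52.6 and 82.7 CPM against 72.2 and 55.1. The log2 fold was -0.04 ± 0.24 (SE, n = 2; edgeR adjusted p = 0.918), and it was negative in library 1 (-0.45) and positive in library 2 (0.58). In this comparison 32.4% of 11456 genes were called. A single deep cell of 42339 UMIs carried 12 of the 44 Adcyap1 UMIs of the class in library 2, and without it the level there was 65.3 CPM. In trigeminal-like neurons 1 cell of library 1 carried 24 of 83 UMIs, and the level without it was 90.7 CPM. The trigeminal-like class thus kept the higher value in library 1 and the lower one in library 2.

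Within excitatory-like neurons a minority of cells held a UMI of Adcyap1, at a mean of 1.86 and 0.331 UMIs per cell, so library 2 is too shallow to show whether the transcript is concentrated. At least 1 UMI was found in 30 of 69 cells of library 1 (43.5%, exact binomial interval 31.6 to 56.0, median depth 17301 UMIs) and in 35 of 181 of library 2 (19.3%, 13.9 to 25.9, median 3690). In oligodendrocyte-like cells the shares were 2 of 37 (5.41%, median 9819 UMIs) and 4 of 673 (0.594%, median 1441). In library 1, 10 cells held 5 or more of its 128 UMIs, the highest 24. When each cell was thinned to 5000 UMIs, a depth chosen after the data were seen, 26.5% of 68 and 20.3% of 59 excitatory-like cells kept an Adcyap1 UMI, against 3.13% of 32 and 7.69% of 26 inhibitory-like cells, with 1 and 122 shallower excitatory-like and 1 and 117 shallower inhibitory-like cells left out. Excitatory-like neurons with a UMI of Lmx1a or Lmx1b, transcription factors of dorsal hindbrain neurons, had 101 and 91.8 CPM of Adcyap1 against 74.6 and 61.7 in the rest. This difference did not pass and was -0.87 with Leiden clusters (log2 fold 0.41 ± 0.28, SE, n = 2; edgeR adjusted p = 0.789, with 2.96% of 7567 genes called).

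To describe the excitatory-like neurons that carried the ligand, the 30 and 35 cells with an Adcyap1 UMI were set against the 39 and 146 without. Their genes differed little: edgeR called 74 of 7871 genes (0.94%), 35 higher (0.445%) and 39 lower (0.495%), but DESeq2 called 0 (50 at an unadjusted p under 0.05), and edgeR without the library block called 0 (324 at an unadjusted p under 0.05). The count was 1 at a class score of 0.30, 8 without doublet removal, 14 with at least 500 genes and 44 with Leiden clusters. Penk was called without doublet removal and with at least 500 genes but not at a score of 0.30 or with Leiden clusters, and Crh was called with Leiden clusters but not in the other 3. The positive cells were also deeper, with median depths of 20147.5 and 5110 UMIs against 15639 and 3400, and the part of depth in these calls was not tested. The values that follow are edgeR's. Of 38 neuropeptide precursors 6 were abundant enough to be tested, 2 rose and none fell, with a list median of 0.66 against 0.01 over all genes. Penk, the enkephalin precursor, stood at 169 and 130 CPM against 52.2 and 45.2 (log2 fold 1.66 ± 0.25, SE, n = 2; edgeR adjusted p = 5.76e-08). Crh, the gene of corticotropin-releasing hormone, stood at 102 and 97.8 CPM against 1.31 and 61.3, a large gap in library 1 and a small one in library 2 (log2 4.48 and 0.65). Tac1, Grp, Sst and Nucb2 did not pass.

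Of 35 hindbrain transcription factors 22 were tested in this split, 2 rose and none fell, with a median of -0.04 against 0.01 over all genes. Ebf2, a transcription factor of neuronal differentiation, rose from 158 and 329 CPM to 322 and 531 (log2 fold 0.89 ± 0.18, SE, n = 2; edgeR adjusted p = 0.000393), but stood at -0.32 with Leiden clusters, while Lmx1a, Lmx1b and Foxp2 did not pass. Among the genes with the largest positive folds by the naming rule were the zinc finger gene Bnc2 (2.72 ± 0.30), the sulfotransferase gene Chst9, the calcium-binding protein gene Calb1 (2.17 ± 0.34), Gpc3, Rorb, Adam12 and Cpne8. On the negative side were the lysophosphatidic acid receptor gene Lpar1 (2 and 0 UMIs against 18 and 16), the ephrin receptor genes Epha3 (-2.22 ± 0.33) and Epha7 (-1.33 ± 0.32), Sox2ot, Bend7, Nptx1, Otof, Vwa5b1 and Cpne4. Uty, a gene of the Y chromosome, was also lower (-1.27 ± 0.35), in libraries that mixed both sexes. Of 10 phosphodiesterases tested, Pde1a alone rose (0.77 ± 0.21), with log2 folds of 1.48 in library 1 and -0.22 in library 2. Adcyap1r1 did not pass in the split (0.23 ± 0.31; edgeR adjusted p = 0.962).

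Vip (ENSMUSG00000019772, chromosome 10, 5639218 to 5647617, plus strand) was close to the detection limit. All barcodes together held 4 UMIs in library 1 and 3 in library 2. Excitatory-like neurons held 2 and 2 of them, all 4 in cells with an Lmx1 UMI, 1 trigeminal-like cell held 2, and 1 cell without a class held 1. Noradrenergic-like neurons held none, and the exact intervals reached 3.73 and 6.93 CPM. A floor of 3 counts of the class total would be 3.04 and 5.64 CPM in the 2 libraries. Inhibitory-like neurons, among which VIP interneurons are found in other brain regions, held none either. The low-count filter removed Vip from every comparison. Without it, edgeR did not call Vip for noradrenergic-like against other neurons (adjusted p = 0.764) or for neurons against non-neuronal cells (adjusted p = 0.596).

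Among the receptors, Adcyap1r1 (ENSMUSG00000029778, chromosome 6, 55451978 to 55501451, plus strand) was highest in astrocyte-like cells and second in noradrenergic-like neurons. Astrocyte-like cells stood at 147 CPM in library 1 (75.8 to 256, 12 UMIs) and 131 CPM in library 2 (90.5 to 185, 33 UMIs), a mean of 139 ± 10.8 (SD, n = 2). Noradrenergic-like neurons had 87.1 (86 UMIs) and 71.4 CPM (38 UMIs), a mean of 79.2 ± 11.1 (SD, n = 2). Oligodendrocyte precursor-like cells had 86.0 and 61.5 CPM from only 6 and 3 UMIs. The libraries of astrocyte-like and noradrenergic-like cells did not overlap, whereas those of noradrenergic-like and precursor-like cells did.

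Excitatory-like neurons followed with 61.1 and 40.7 CPM of Adcyap1r1, inhibitory-like neurons with 39.9 and 51.9, and unassigned neurons with 30.0 and 47.8, and the libraries of these 3 classes overlapped. At the bottom, trigeminal-like neurons had 1 and 3 UMIs (1.37 and 5.46 CPM), ependymal-like cells 1 and 1, and oligodendrocyte-like cells 1 and 3 (2.48 and 2.69 CPM). The trigeminal-like level was as low as that of oligodendrocyte-like cells within the counting error of so few UMIs. The 106 endothelial-like cells of library 2 held none, with an interval that reached 33.9 CPM.

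Against the other neurons, noradrenergic-like neurons had more Adcyap1r1, 87.1 and 71.4 CPM against 38.9 and 39.7. The log2 fold was 0.97 ± 0.21 (SE, n = 2; edgeR adjusted p = 0.00143), with 1.14 and 0.83 in the single libraries. DESeq2 did not call it (adjusted p = 0.147), and 32.4% of all genes were called by edgeR. Part of the gap lay in the choice of neighbours: without trigeminal-like and granule-like neurons among the others, an alternative picked after seeing the data, the fold was 0.59 ± 0.20 (edgeR adjusted p = 0.0261). The astrocyte marker score, on a scale set by the astrocyte-like cells with the highest marker shares, had a median of 0.00708 and 0 in noradrenergic-like cells, against 0.0405 and 0.0434 in trigeminal-like cells. Cells with a high score for another list had been left without a class, and the part of astrocyte transcripts in the level was not tested. The same deep cell of library 2 carried 10 of the 38 Adcyap1r1 UMIs, and without it the level was 57.1 CPM. Excitatory-like and inhibitory-like neurons did not differ detectably in Adcyap1r1 (log2 fold 0.20, with 0.59 and -0.33 in the single libraries; edgeR adjusted p = 0.829).

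Astrocyte-like cells stood far above the other non-neuronal cells, at 147 and 131 CPM of Adcyap1r1 against 11.5 and 6.66. The log2 fold was 3.94 ± 0.59 (SE, n = 2; edgeR adjusted p = 4.8e-10, DESeq2 adjusted p = 0.000349), in a comparison where 25.9% of 7271 genes were called. Against noradrenergic-like neurons directly, the astrocyte-like class was higher by 1.05 ± 0.41 (SE, n = 2; edgeR adjusted p = 0.0263), with 45.9% of 6629 genes called. That call was lost with DESeq2 (adjusted p = 0.291) and without the low-count filter (0.367). Adcyap1 went the other way in this pair, at 1 UMI in 262 astrocyte-like cells against 96 in 71 noradrenergic-like cells, a pooled ratio of 0.0476 (0.0012 to 0.271). Over all cells, neurons had 49.6 and 44.1 CPM of Adcyap1r1 and non-neuronal cells 24.3 and 24.5 (log2 fold 0.86 ± 0.28, SE, n = 2; edgeR adjusted p = 0.0102, DESeq2 adjusted p = 0.264). When astrocyte-like cells were left out of the non-neuronal side, again picked after seeing the data, the fold was 2.36 ± 0.35. These comparisons share cells with one another, so their folds are not independent.

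**Figure D2:**
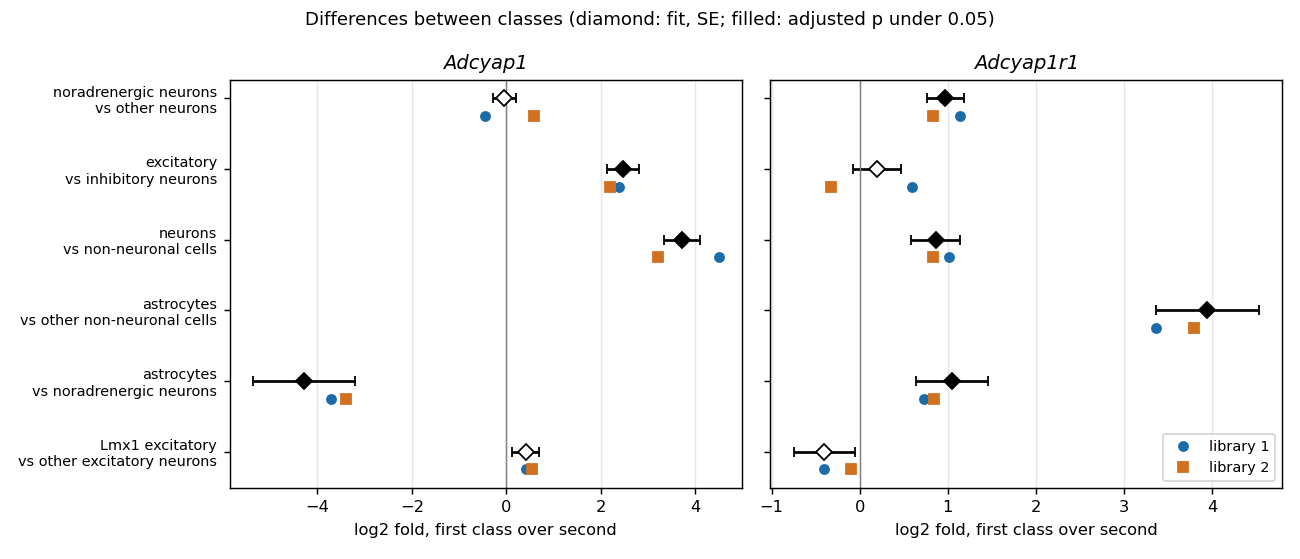
Log2 fold of Adcyap1 (left) and Adcyap1r1 (right) between classes, first class over second; diamonds are the fitted fold with its SE, filled where the adjusted p was under 0.05, and the coloured points are the folds of the 2 single libraries. By edgeR, Adcyap1 separates excitatory-like from inhibitory-like neurons (2.47) but not noradrenergic-like from other neurons (-0.04), and Adcyap1r1 does the reverse (0.20 and 0.97). DESeq2 called the 2.47 (adjusted p = 0.0235) but not the 0.97 (adjusted p = 0.147).

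Cell by cell, some noradrenergic-like neurons held transcripts of both PACAP and its receptor. In library 1 all 12 cells held Adcyap1r1, with a lowest count of 1, a median of 6.5 and a highest of 11 UMIs, and 9 of the 12 held Adcyap1 (lowest 0, median 3.5, highest 12). With the receptor in every cell, the 9 cells that held both are the number that the product of the shares gives. In library 2, at a median depth of 7094 against 83596.5 UMIs, 22 of 59 cells held Adcyap1r1, 19 held Adcyap1 and 10 held both, where the product of the shares gives 7.08 cells. At 5000 UMIs per cell, 1 and 3 cells held both where the products gave 1.33 and 2.04.

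In trigeminal-like neurons more cells held the ligand than the receptor, at median depths of 60464 and 14023.5 UMIs against 83596.5 and 7094 in noradrenergic-like cells. In library 1, 10 of 11 cells held Adcyap1 (lowest 0, median 7, highest 24 UMIs) and 1 held Adcyap1r1, together with Adcyap1, in cells of 33475 to 110216 UMIs. In library 2, 15 of 32 held Adcyap1 and 3 held Adcyap1r1, and none held both. The pooled ratio of Adcyap1r1 in trigeminal-like over all other neurons was 0.057 (0.0154 to 0.147), with log2 folds of -4.68 and -3.00 in the single libraries, in a comparison where edgeR called 30.1% of all genes. This contrast was chosen after the levels had been seen, so no test is given. After thinning to 5000 UMIs, Adcyap1r1 was left in 8 of 12 and 14 of 48 noradrenergic-like cells and in 0 of 11 and 1 of 31 trigeminal-like cells. Adcyap1 was then left in 5 of 11 and 4 of 31 trigeminal-like cells, against 2 of 12 and 7 of 48 noradrenergic-like cells. At 2000 UMIs, Adcyap1r1 was left in 1 of 12 and 6 of 54 noradrenergic-like cells and in no trigeminal-like cell. Adcyap1 was left there in 2 of 11 and 3 of 32 trigeminal-like cells, against 3 of 12 and 8 of 54 noradrenergic-like cells. For Adcyap1 the order of the classes in library 1 thus changed with depth. Each depth was a single random draw, and 5000 was chosen after the data were seen. At 1000 UMIs too few cells kept a UMI to compare the classes, with Adcyap1r1 in 0 of 12 and 5 of 56 noradrenergic-like cells.

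**Figure D3:**
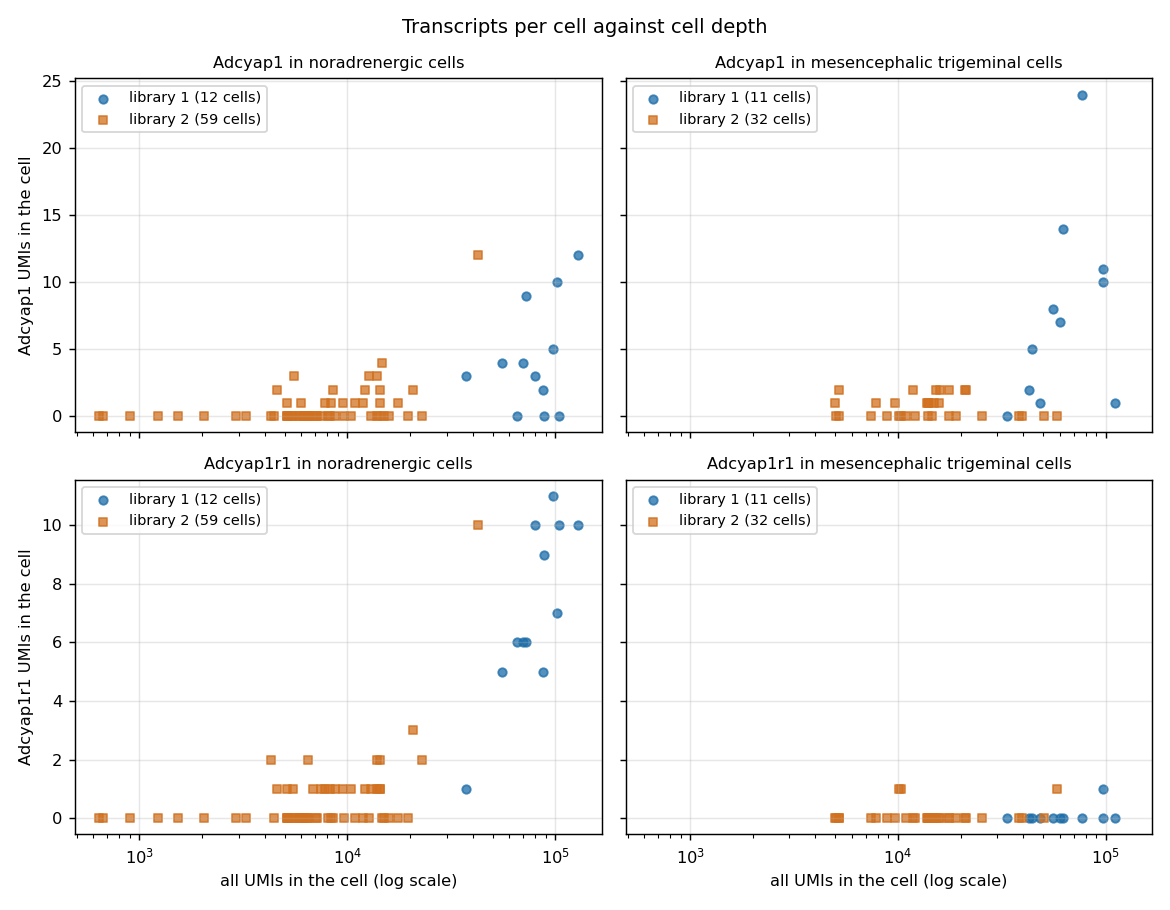
UMIs of Adcyap1 (top) and Adcyap1r1 (bottom) in each noradrenergic-like (left) and trigeminal-like (right) cell against all UMIs of the cell on a log scale; circles are library 1 and squares library 2. All 12 noradrenergic-like cells of library 1 hold Adcyap1r1 (1 to 11 UMIs), while 1 of 11 trigeminal-like cells does, at median depths of 83596.5 and 60464 UMIs.

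Vipr1 (ENSMUSG00000032528, chromosome 9, 121642716 to 121672954, plus strand) was scarce, with 9 and 8 UMIs in all barcodes. Unassigned neurons held 1 and 6, excitatory-like neurons 3 and 2, and inhibitory-like neurons 2 and 0. Noradrenergic-like neurons held none, with intervals that again reached 3.73 and 6.93 CPM. No class stood apart at this depth, and the filter removed Vipr1 from every comparison. Lyzl4, on the opposite strand, starts at 121642096, just before the start of Vipr1, and runs away from it. Lyzl4 had 4 and 10 UMIs.

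Vipr2 (ENSMUSG00000011171, chromosome 12, 116077726 to 116146261, plus strand) had 26 and 11 UMIs in all barcodes, and over both libraries noradrenergic-like neurons held the most UMIs of any class. By CPM noradrenergic-like neurons were not first in either library. Cells without a class had 16.5 CPM in library 1 (3 UMIs), and astrocyte-like cells had 7.96 CPM in library 2 (2 UMIs). Noradrenergic-like neurons had 12.1 and 3.76 CPM. The 12 UMIs of noradrenergic-like neurons in library 1 (12.1 CPM, 6.28 to 21.2) lay in 8 of 12 cells, with at most 4 in a cell. Library 2 held 2 UMIs in 2 of 59 cells (3.76 CPM, 0.455 to 13.6). The other neurons held 7 and 3 UMIs (2.00 and 0.908 CPM), a pooled ratio of 6.26 (2.59 to 15.7) that rested mainly on library 1. The gene was too scarce for the low-count filter in this comparison. Without the filter the log2 fold was 2.27 ± 0.86 (SE, n = 2; edgeR adjusted p = 0.0464 over 21254 genes, of which 17.7% were called), with 2.14 and 1.34 in the single libraries. Trigeminal-like and inhibitory-like neurons and oligodendrocyte-like cells held no Vipr2 UMI in either library. The 3 UMIs of oligodendrocyte precursor-like cells in library 1 gave 43.0 CPM (8.87 to 126), with none in library 2. Neurons and non-neuronal cells as a whole could not be separated (log2 fold -0.07 ± 0.87, SE, n = 2; edgeR adjusted p = 0.956). An antisense gene, Gm20658, overlaps Vipr2 and had 1 and 2 UMIs, and reads of the pair can be told apart only if strand was used in counting, which the sources used here do not state.

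**Figure D4:**
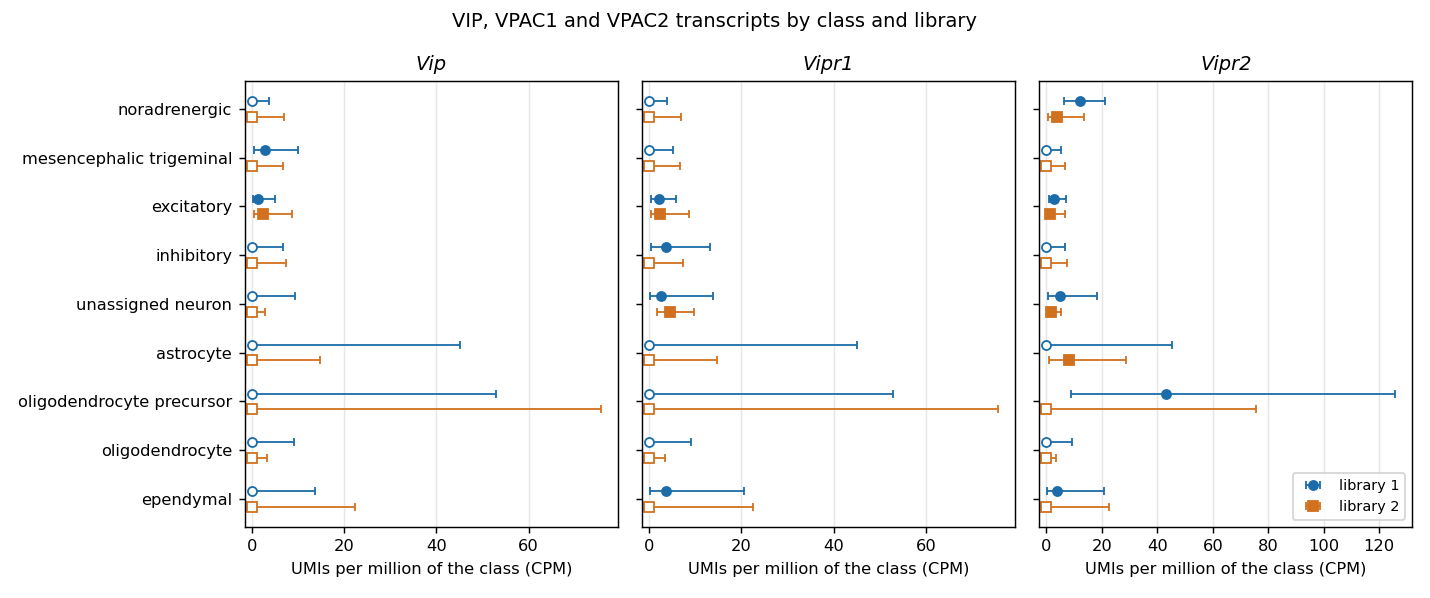
Level of Vip, Vipr1 and Vipr2 in 9 cell classes, in CPM, with exact 95% Poisson intervals; circles are library 1, squares library 2, open symbols mark 0 UMIs, and granule-like neurons are left out because of their few UMIs. Vipr2 in noradrenergic-like neurons (12.1 and 3.76) is the only value of the 3 genes that rests on more than 6 UMIs in a library.

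Downstream of the receptors, the cyclic AMP genes of noradrenergic-like neurons moved in both directions against other neurons, by edgeR with 16.3% of all genes higher and 16.1% lower. All 6 protein kinase A subunit genes rose, with a list median of 0.78 against -0.02 over all genes. Prkar2a, a regulatory subunit, stood at 131 and 171 CPM against 69.3 and 85.7 (log2 fold 0.90 ± 0.16, SE, n = 2; edgeR adjusted p = 0.000364), and Prkar1b at 474 and 442 CPM against 252 and 255 (0.80 ± 0.13). Of 8 G protein alpha subunits 5 rose, 1 fell and 2 did not pass (median 0.61). Gnas, whose products include the stimulatory subunit that these receptors use, stood at 2237 and 1550 CPM against 991 and 772 (1.03 ± 0.12; edgeR adjusted p = 1.92e-06). Counts are per gene, so the transcripts of Gnas were not told apart. Gnai2, of an inhibitory subunit, rose by 1.10 ± 0.19, and Gnal, the olfactory-type stimulatory subunit, fell by 0.64.

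Adenylyl cyclases went the other way: of 8 tested, 6 fell, none rose and 2 did not pass (median -1.15 against -0.02). Adcy8, a calcium-stimulated cyclase, stood at 12.1 and 16.9 CPM against 133 and 158 (log2 fold -3.41 ± 0.25, SE, n = 2; edgeR adjusted p = 6.23e-09), and Adcy7 had 5 and 0 UMIs against 71 and 51 (-2.57 ± 0.57). Both genes of Epac, the exchange factors that bind cyclic AMP directly, fell. Rapgef4 stood at 72.9 and 78.9 CPM against 302 and 303 (-2.06 ± 0.16; edgeR adjusted p = 1.75e-08), and Rapgef3 had 1 UMI against 89, a pooled ratio of 0.0502 (0.00126 to 0.287).

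Of 11 phosphodiesterases tested, which degrade cyclic AMP, 2 rose, 5 fell and 4 did not pass (median -0.32). Pde8a stood at 38.5 and 50.7 CPM against 10.3 and 17.6 (log2 fold 1.65 ± 0.29, SE, n = 2; edgeR adjusted p = 0.000222) and Pde4b at 728 and 898 against 404 and 402 (0.94 ± 0.13). Pde7b had 5 and 1 UMIs against 223 and 283 (-4.23 ± 0.39) and Pde1b 2 and 2 against 56 and 66 (-2.75 ± 0.56). Of 6 CREB and CRTC genes, which encode the factors and coactivators that read cyclic AMP signals in the nucleus, only Crtc3 passed (-1.12 ± 0.21), and it fell. Ramp1, of a receptor accessory protein, rose from 2 and 3 UMIs to 9 and 5 (3.51 ± 0.78). Of 5 peptide processing genes tested, 2 fell and 3 did not pass: Cpe, a carboxypeptidase of neuropeptide maturation, by 0.69, and Mme, the peptidase neprilysin, which had no UMI and was at least 2.46-fold lower than in other neurons (33 UMIs there, against a floor of 3 counts over both libraries). None of 10 related secretin family genes was abundant enough to be tested. DESeq2 called 3 of the 6 protein kinase A genes, 2 of the 5 G protein genes that rose and 3 of the 6 cyclases that fell, and it did not call Gnal, Adcy7, Rapgef3, Pde1b or Crtc3 (adjusted p between 0.0555 and 0.332). It gave no adjusted p for Ramp1 and Mme. Low list medians of cyclases and phosphodiesterases were not particular to noradrenergic-like neurons. For trigeminal-like against other neurons they were -1.19 and -1.44, against -0.06 over all genes. The medians of protein kinase A and G protein alpha genes there were -0.35 and -0.46. That contrast was chosen after the levels had been seen, so no test is given.

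**Figure D5:**
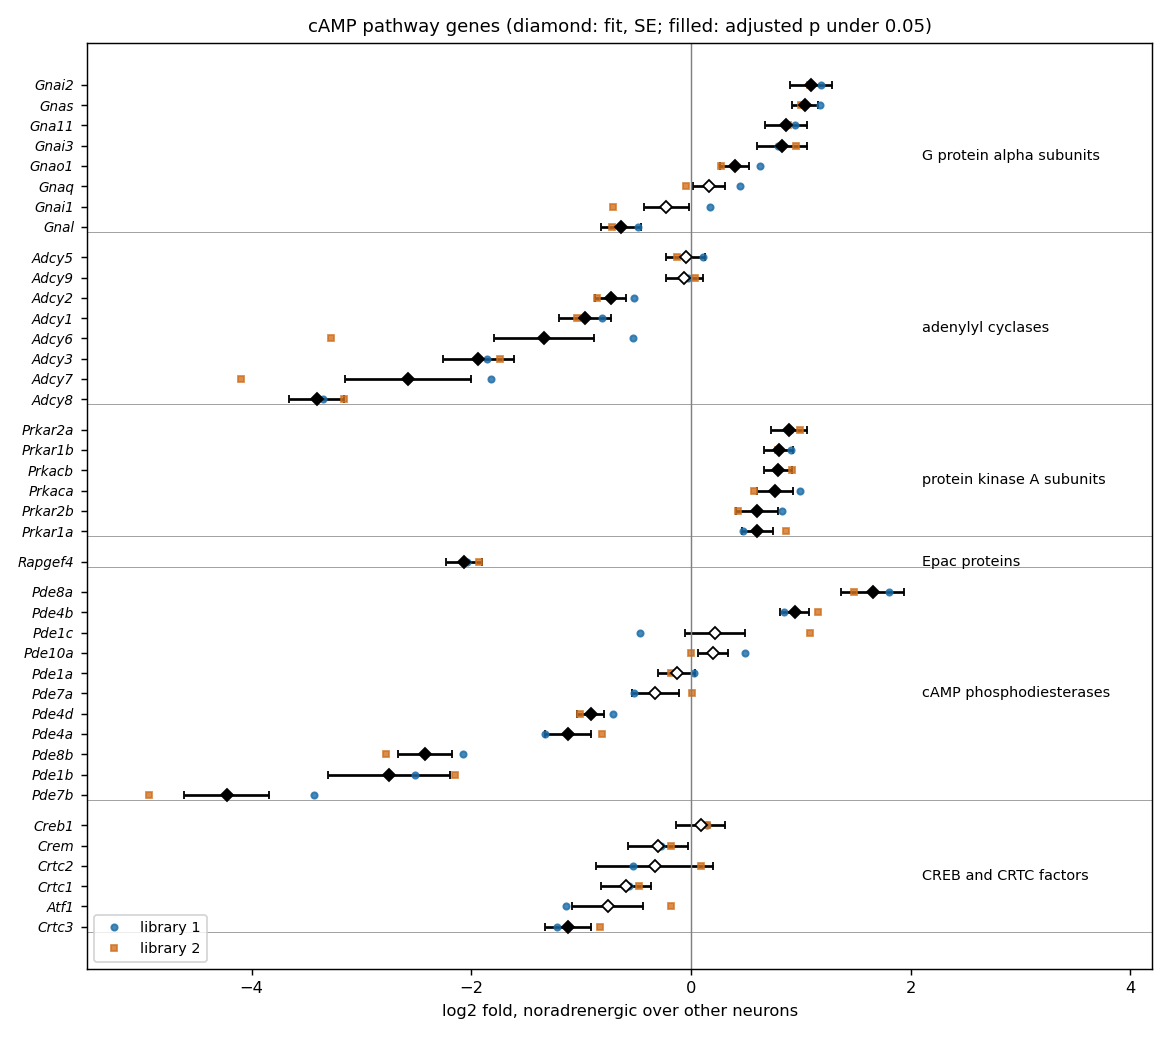
Log2 folds of cyclic AMP pathway genes, noradrenergic-like over other neurons, by gene group; diamonds are the fitted fold with its SE, filled where the adjusted p was under 0.05, and the coloured points are the single libraries. Only genes with more than 3 UMIs in the noradrenergic-like class are drawn; all 6 protein kinase A genes lie above 0 and no adenylyl cyclase does so past the threshold.

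Cyclic AMP genes of astrocyte-like cells also moved in both directions against other non-neuronal cells, by edgeR with 11.7% of all genes higher and 14.2% lower. Oligodendrocyte-like cells held most UMIs of that other side, and their part in these folds was not tested. Of 6 adenylyl cyclases tested 2 rose and 1 fell (median 1.06 against -0.08 over all genes). Adcy8 stood at 440 and 350 CPM against 21.7 and 14.6 (log2 fold 4.40 ± 0.43, SE, n = 2; edgeR adjusted p = 9.3e-23) and Adcy2 at 428 and 358 against 23.0 and 30.0 (3.78 ± 0.41), whereas Adcy5 had 0 and 4 UMIs against 78 and 225 (-3.60 ± 0.68). Of 10 phosphodiesterases 3 rose (Pde7b by 2.90 ± 0.38, Pde1c by 1.64 ± 0.42 and Pde4d by 0.95 ± 0.34), 2 fell and 5 did not pass. Those that fell were Pde4b, from 3569 and 5105 CPM to 587 and 510 (-3.04 ± 0.37), and Pde8a, with 3 UMIs against 724 and a pooled ratio of 0.0284 (0.00585 to 0.0835). Of 5 protein kinase A genes Prkar2a rose (1.67 ± 0.55), of 8 G protein alpha genes Gnai1 fell (-2.58 ± 0.61), Rapgef4 fell (-2.13 ± 0.61), and none of 5 CREB and CRTC genes passed. Cpe rose by 3.05 ± 0.36, Pcsk2 fell by 1.53, and Ramp1 rose by 1.77 ± 0.61. DESeq2 did not call Prkar2a, Gnai1, Rapgef4, Pde1c, Pde4d, Pcsk2 or Ramp1 (adjusted p between 0.0848 and 0.445).

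Of 10 genes of the related secretin family 2 could be tested between neurons and non-neuronal cells, and both were lower in neurons. Sctr, the secretin receptor gene, stood at 2.01 and 1.30 CPM against 28.9 and 15.4 (log2 fold -3.75 ± 0.51, SE, n = 2; edgeR adjusted p = 5.55e-07, with 24.5% of genes lower), and Gipr, the receptor gene of glucose-dependent insulinotropic polypeptide, at 1.12 and 1.56 against 4.63 and 11.4 (-2.60 ± 0.70; edgeR adjusted p = 0.00289, DESeq2 adjusted p = 0.103). Pcsk1, a prohormone convertase, was higher in excitatory-like than inhibitory-like neurons, at 73.9 and 69.5 CPM against 25.4 and 35.9 (1.25 ± 0.29; edgeR adjusted p = 0.000623, not called by DESeq2), the same direction as Adcyap1.

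Across the 10 classes, the genes whose log2 level most resembled that of Adcyap1 were Pnma2 (Pearson r = 0.97), Slc25a22, Bdnf, Btbd10 and Armcx1 (r = 0.95), out of 9798 genes. Armcx1 was highest in trigeminal-like and the others in noradrenergic-like neurons, whereas Adcyap1 was highest in excitatory-like neurons. For Adcyap1r1 the most similar genes were Tpd52l1 (r = 0.95), Dok6, Gabrb1, Chst10 and Klhl23 (r = 0.91). Dok6 and Klhl23 were highest in precursor-like cells and the others, like Adcyap1r1, in astrocyte-like cells. For Vipr2, with 36 UMIs in all, they were Gsap, Car8, C1ql1, Atp7a and Cacng4 (r between 0.93 and 0.90). Of these, C1ql1 and Cacng4 served as oligodendrocyte precursor markers and Car8 as a Purkinje marker. All genes named for Vipr2, like Vipr2 itself, had their highest level in precursor-like cells, where that of Vipr2 rested on 3 UMIs of library 1 and none of library 2. The points are classes of the same 2 libraries and share depth and composition, so these values describe likeness and carry no test.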

How the data were processed

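Messenger RNA of single cells or nuclei was counted with droplet libraries, 2 samples of 1 group. The deposited matrices hold counts, whole numbers of UMIs per gene and barcode, as raw values. The submitters' processing notes name Cell Ranger 7.0, Seurat, mm10 and GRCm38, whereas the version per the file headers is Cell Ranger 6.1.2. The handling of introns and strand is not given in the sources used here. The lowest barcode held 4208 UMIs in library 1 and 500 in library 2, so barcodes had been selected before deposit. Of the features, 32158 (99.61%) were found in GENCODE M21.

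The members and lists were chosen with earlier results of these data known. Barcodes needed 300 genes or more, with mitochondrial UMIs at 20% or less. The highest Scrublet doublet scores were removed at 0.8% per 1000 barcodes (1 and 63 barcodes; scanpy 1.11.5). The score of a marker list in a cell was its share of UMIs over the share in the 2% of cells with the highest share. A broad class, or a neuron class other than excitatory-like and inhibitory-like, needed a score of 0.15 or more and 2 UMIs from 2 markers. No other list of the same level could lie above 0.5 of that score. Remaining neurons were excitatory-like with at least 1 UMI of the only excitatory marker, Slc17a6, and inhibitory-like with at least 2 UMIs of the inhibitory list. This count had to exceed 2 times that of the other list, and no score was needed. Neurons that met neither rule stayed unassigned. Lists were neuron, astrocyte, oligodendrocyte and precursor, ependymal, choroid plexus, microglia or macrophage, endothelial, mural, fibroblast and erythroid cells. Within neurons they were noradrenergic, trigeminal, granule, Purkinje, serotonergic, cholinergic, inhibitory and excitatory neurons. No cell was given the serotonergic class in either library. Neurons numbered 188 and 990, non-neuronal cells 83 and 1205, and 23 and 482 cells had no class. In library 2, 52 cells lay at a broad score between 0.10 and 0.20, against 1 in library 1.

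UMIs were summed per class and library and compared with the two-sided quasi-likelihood test of edgeR 4.0.16 (R 4.3.3), after TMM scaling and filterByExpr. The library was a block term, since every library supplied cells to both sides. Benjamini-Hochberg adjustment ran over all genes of a fit, at a threshold of 0.05. The fit leaves 1 residual degree of freedom and shares spread across genes. The p-values measure only the spread between these libraries, which may be technical, since the number of mice per library is not given. SE is the log2 fold over the square root of F, and folds of single libraries carry a prior of 2 counts. Named list genes were the 2 largest folds of each sign past the threshold in each list, and in the split by Adcyap1 the 10 of each sign with at least 20 CPM in both libraries of the higher side and 1 sign in both, without Gm and Rik symbols. Of the genes this rule names, 1 is not reported here. A few list genes outside this rule are named with their values after these were seen. Likeness used log2(CPM + 10). DESeq2 1.42.0 and the settings in the closing section were alternatives. The script was tested on simulated data. Other software was Python 3.11.15, numpy 2.4.6, pandas 2.3.3, scipy 1.17.1 and matplotlib 3.10.9.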

Additional observations from a re-analysis of the deposited data

How the results depend on the processing

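DESeq2 called fewer genes in every comparison: 1198 for noradrenergic-like against other neurons, 41 for excitatory-like against inhibitory-like, 3789 for neurons against non-neuronal cells, 696 for astrocyte-like against other non-neuronal cells, 1394 for astrocyte-like against noradrenergic-like, 25 for Lmx1 excitatory-like neurons, 0 for the split by Adcyap1 and 1486 for trigeminal-like against other neurons. It ended the calls of Adcyap1r1 in noradrenergic-like neurons (log2 fold 0.96), in neurons (0.82) and in astrocyte-like against noradrenergic-like cells (1.02), and that of Adcyap1 in the last pair (-4.25). Without the low-count filter Adcyap1r1 in the last pair was 0.66 and not called. With no replicate block, 110 genes were called between excitatory-like and inhibitory-like neurons, 54 for Lmx1 and 0 for the split by Adcyap1. The block changed no call of a member. The split gave 1 call with a class score of 0.30, 44 with Leiden clusters, 8 without doublet removal and 14 with at least 500 genes, and Lmx1 gave 117 and 113 with the first and second of these. Folds below the threshold changed sign for Adcyap1 in noradrenergic-like neurons (0.00532 with DESeq2, 0.13 with Leiden clusters), for Adcyap1 with Lmx1 (-0.87 with Leiden clusters) and for Vipr2 in neurons (0.0577 without the filter, 0.20 with no replicate block, 0.26 with Leiden clusters, 0.34 without astrocyte-like cells). Adcyap1r1 in excitatory-like against inhibitory-like neurons ran from -0.33 to 0.59 with a library left out. In the split, Pde1a ran from -0.22 without replicate 1 to 1.48 without replicate 2, and Ebf2 -0.32 with Leiden clusters. With each library left out in turn, folds ran from 2.19 to 2.39 for Adcyap1 in excitatory-like neurons, from -3.72 to -3.39 for Adcyap1 in astrocyte-like against noradrenergic-like cells, and from 0.42 to 0.55 for Adcyap1 with Lmx1. For Adcyap1r1 they ran from 0.83 to 1.01 in neurons, 3.36 to 3.79 in astrocyte-like cells, 0.73 to 0.84 against noradrenergic-like cells and -0.40 to -0.0942 with Lmx1, and for Vipr2 in neurons from -0.11 to 0.12. Mean Adcyap1 levels were 64.5 CPM in excitatory-like and 8.43 in inhibitory-like neurons with Leiden clusters, and 12.6 in the latter as a mean over cells. Shares moved with depth: at 5000 UMIs Adcyap1 was found in 26.5% and 20.3% of excitatory-like and Adcyap1r1 in 66.7% and 29.2% of noradrenergic-like cells, and at 2000 UMIs Adcyap1r1 in 42.9% and 0% of astrocyte-like cells, 2 of which were left in library 2. The cause of these shifts was not tested. The split after thinning to 1000 UMIs was not run, with 4 positive cells in library 1, nor was the comparison of vascular cells, also 4 there.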
